A study of Mus musculus with 96 samples.

Results

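The nuclear-encoded subunits of the respiratory chain were examined in heart cells of mice after myocardial infarction. Their genes were chosen by name alone, as the protein-coding genes of the GRCm38 annotation whose symbols begin with Nduf followed by a subunit letter and number, Uqcr, Cox4 to Cox8 or Atp5, or are Sdha, Sdhb, Sdhc or Sdhd. The rule uses no measured value, but it was set with earlier results of these data known. It gave 86 genes of the 50868 listed in every file, with 85 distinct symbols because Atp5o appears under 2 gene identifiers. Complex I had 36 of them, complex II 4, complex III 8, complex IV 20 and complex V 18. Ndufa4, first named as a complex I subunit and now placed in complex IV, and its relative Ndufa4l2 were counted with complex IV.

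Total RNA was sequenced from 4 fractions of hearts of male C57Bl/6J mice aged 12 to 14 weeks, in which the left anterior descending coronary artery was tied off permanently. Cardiomyocytes (CM) were spun down at low speed, after which hematopoietic cells (HC) were captured on anti-CD45 beads, endothelial cells (EC) on anti-CD144 beads and fibroblasts (FB) by attachment to plastic. Hearts were taken on Days 1, 3, 7, 14 and 28 after surgery, and Day 0 hearts came from control mice without surgery. Each of the 24 groups had 4 libraries, so that 96 libraries were compared, and each library held pooled RNA of several mice. The labels describe the 4 as biological replicates and the study's methods as both biological and technical, so the p-values measure the spread between these libraries, which may in part be technical. The cell types differed in isolation, RNA input and library batch, and these cannot be told apart from the cell type itself. No group had sham surgery, so the effect of the operation cannot be told apart from that of the infarct.

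The respiratory chain sits in the inner mitochondrial membrane. Complexes I and II pass electrons to ubiquinone, complex III passes them on to cytochrome c, complex IV reduces oxygen, and complex V, the ATP synthase, uses the proton gradient that complexes I, III and IV build. A few core subunits are encoded in the mitochondrial genome, and the genes described here encode most of the rest, together with all of complex II. Subunits with other symbols were not taken in by the name rule. It did take in Atp5s, which is related to complex V but not a subunit, and the supercomplex factor Cox7a2l, counted with complex IV. Several complex IV subunits come in isoforms. In heart and skeletal muscle Cox6a2, Cox7a1 and Cox8b take the place of Cox6a1, Cox7a2 and Cox8a, while Cox4i2 and Ndufa4l2 are induced by low oxygen in several cell types.

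Libraries held 13503024 to 55758471 estimated reads in CM, 16214419 to 40395291 in HC, 12445124 to 33868990 in EC and 2664338 to 36545715 in FB. Ribosomal RNA took 53.0 to 63.4% of CM reads and at most 27.5% elsewhere. The lowest totals, 2664338 and 3508819, were those of replicates 2 and 3 of FB Day 3. Each cell type carried its own defining markers, but transcripts of the contractile apparatus were also present in other fractions. The summed level of 16 abundant CM transcripts was 12524 to 20034 CPM (read counts scaled to a common library size) in EC Day 0 and 17405 to 27734 CPM in HC Day 0 libraries. In CM Day 0 the sum was 25023 to 34554 CPM. Each was normalised within its cell type, so these levels do not give the relative amount of CM RNA in the fractions. Reads of the mitochondrial genome took 73.1 to 84.1% in CM Day 0 and 29.2 to 37.7% in HC Day 0. In FB the sum of the 16 transcripts stayed under 1000 CPM in every library except FB Day 3 replicates 2 and 3, with 3748 and 2753 CPM. In an earlier analysis of these data 8 libraries were found to share a set of antisense transcripts (HC Day 28 replicates 2 and 4, FB Day 28 replicate 4, FB Day 3 replicates 2 and 3, EC Day 28 replicate 3, EC Day 0 replicates 1 and 2). Counts of members called against Day 0 and in the Day 3 contrasts of change are given with and without these libraries. Comparisons of cell types, isoform shares and most results for single genes are given only with them. So are the EC and FB counts of Day 28 against Day 3. The study itself left out 2 FB Day 3 replicates and 1 HC Day 28 replicate as outliers by principal component analysis. Its text does not name them, and the main tests here keep all 4 libraries of each group.

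At Day 0 the nuclear-encoded subunits took a far larger part of the messenger RNA in CM than in the other fractions. Values of TPM (read counts scaled for transcript length and library size) were rescaled to the sum over nuclear protein-coding genes, so that genes and cell types could be set side by side. The 86 genes summed to 206596, 216364, 222428 and 222961 rescaled TPM in the CM Day 0 libraries. The sums were 42347.6 to 61881.4 rescaled TPM in EC, 33550.2 to 43504.0 in HC and 12921.3 to 14455.5 in FB. The 4 cell types did not overlap except that EC and HC ranges touched between 42347.6 and 43504.0.

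Atp5k, the e subunit of ATP synthase, led in CM with 11406 ± 2741 rescaled TPM (SD, n = 4), followed by Atp5g3, which encodes the proton-carrying c subunit, with 10946 ± 1203 rescaled TPM. In FB and HC the highest was Cox4i1, the widely expressed form of complex IV subunit 4, with 623 ± 52.5 and 1607 ± 101 rescaled TPM (SD, n = 4 each). By complex, the CM sums were 56899 rescaled TPM for complex I, 4503 for II, 19377 for III, 68516 for IV and 67792 for V. The FB sums were 4429, 408, 1320, 3554 and 4169 rescaled TPM for complexes I to V.

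Over all 96 libraries, 83 of the 86 genes passed the filter on low counts in each cell type. Cox8c, Cox7b2 and the second Atp5o entry did not. Cox8c, a testis isoform, had 2 estimated reads in FB and 0 in the other cell types, and Cox7b2, also a testis isoform, had 82 in CM, 9 in HC, 1 in EC and 1 in FB. Set against the average of the remaining cell types, edgeR's quasi-likelihood test at an adjusted p under 0.05 called 81 of 83 members higher and 2 lower in CM, where 29.9% of all 21980 genes tested were called higher and 51.5% lower. The median log2 fold change in CM was 4.03 over the members and -0.69 over all genes. Cox7a1 (7.12, SE 0.14), Cox8b (7.02, SE 0.14) and Cox6a2 (6.89, SE 0.14) were the highest of these in CM, and Ndufa5, an accessory subunit of complex I, followed the isoforms with 5.67 (SE 0.09). The 2 genes called lower in CM were the isoforms Ndufa4l2 (-1.26) and Cox4i2 (-0.49, adjusted p = 0.000206).

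In EC, 3 members were called higher and 79 lower than the average of the other cell types (background, the share of all genes tested that were called, 40.5% and 30.6%). The 3 higher genes were Cox4i2 (1.90), Ndufa4l2 (1.38) and Cox6a2 (0.51, adjusted p = 0.00126). For Cox6a2 this average takes in the very low FB level, and EC was not above CM. At Day 0 Cox6a2 was at 6868 rescaled TPM in CM, 1247 in EC, 1013 in HC and 12.9 in FB. In FB the count was 2 higher and 80 lower (background 39.5% and 34.2%), with Ndufa4l2 (2.27) and Cox4i2 (0.68) higher and Cox6a2 (-7.04) lowest. In HC 0 were higher and 80 lower (background 44.0% and 34.4%), led by Ndufa4l2 (-2.39) and Cox4i2 (-2.09). For these 2 genes the order of HC and CM depended on the scale. On rescaled TPM at Day 0 the mean of Ndufa4l2 was 19.0 in HC and 3.99 in CM, and that of Cox4i2 was 9.49 and 5.44. The HC count of 0 higher was also 0 at an unadjusted p under 0.05 and by DESeq2. The HC direction depended on the scale, since limma on log2(TPM + 1) called 50 members higher and 2 lower in HC, with a median of 0.32 against 0.85 over all genes.

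The change after infarction differed between the fractions, as the plot of medians by complex shows. By edgeR's test on counts more subunit genes were called higher than lower in FB on Days 1 and 3, and more were called lower than higher in EC and HC at every day, and some of these directions turned on deposited TPM, as given for each cell type. In CM the medians lay between -0.55 and 0.26. The CPM used from here on were normalised within each cell type by the trimmed mean of M values, so they are compared between days and not between cell types. In these bulk samples, fewer cells of a type and less RNA per cell cannot be told apart.

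**Figure D1:**
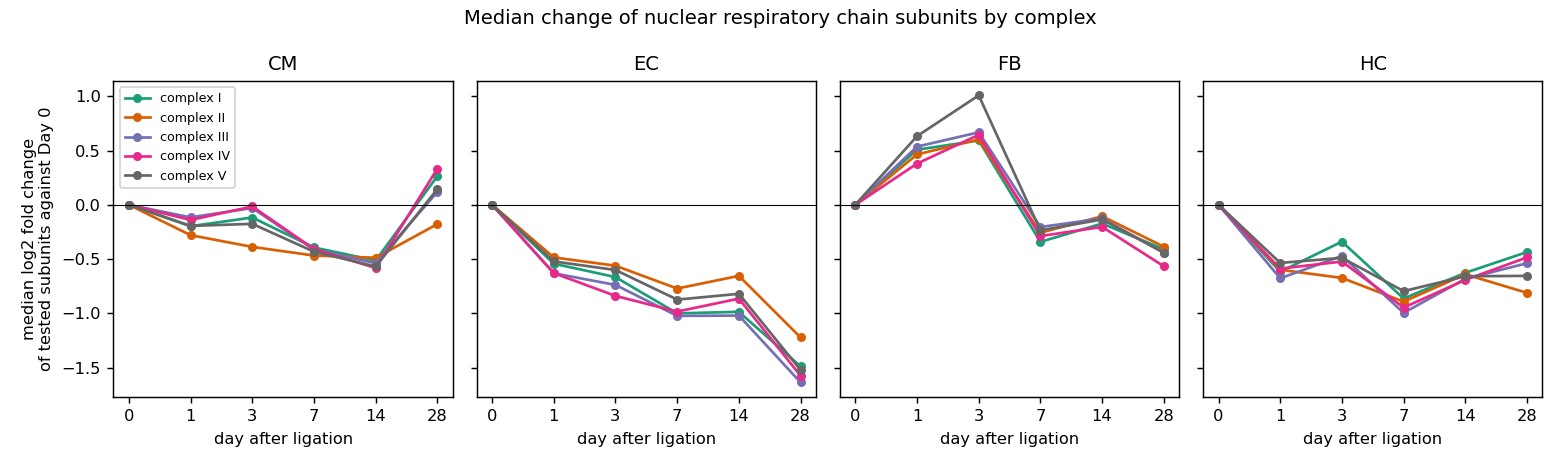
Median log2 fold change against Day 0 (y axis) of the members of complexes I to V at Days 1 to 28 (x axis), 1 panel per cell type. EC medians run down to -1.64 for complex III at Day 28, and FB medians reach 1.01 for complex V at Day 3.

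In FB, 39 of 83 members were called higher and 0 lower at Day 1 (background 11.6% higher and 6.36% lower), with a median log2 fold change of 0.51. The count of 0 held at an unadjusted p under 0.05 and with DESeq2. At Day 1, 66 members were higher in all 4 libraries than in every Day 0 library, which was so for 20.4% of all genes. By complex, 15 genes of complex I, 4 of II, 6 of III, 5 of IV and 9 of V were called higher. Atp5g2, a second gene for the ATP synthase c subunit, had 82.8, 71.2, 79.3 and 82.3 CPM at Day 1, against 33.6, 35.5, 32.3 and 38.2 CPM at Day 0 (log2 fold change 1.18, SE 0.25, adjusted p = 0.0022). The Day 1 and Day 0 libraries were far apart for this gene, with no overlap.

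Cox5a, a widely expressed subunit of complex IV, had 50.3, 47.4, 46.0 and 52.6 CPM at FB Day 1, against 22.2, 23.4, 21.3 and 23.3 CPM at Day 0 (1.12, SE 0.30, adjusted p = 0.0119). Ndufa4 was at 73.0, 60.1, 63.1 and 67.1 CPM on Day 1, against 28.8, 34.4, 28.4 and 31.7 CPM on Day 0 (1.10, SE 0.20, adjusted p = 0.000371). All Day 1 libraries of both genes lay above all Day 0 libraries. Without FB Day 0 replicate 3 the Day 1 count fell to 23 members. On rescaled TPM the same comparison gave 16 members higher and 1 lower, and on log2(TPM + 1) 0 in either direction, with the member median still 0.45 above the median of all genes.

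The FB count was larger at Day 3, with 54 members higher and 1 lower (background 25.8% and 23.3%) and a median of 0.64. Complex V had the highest median (1.01, 13 genes higher), and complex I had 23 genes higher, II 2, III 5 and IV 11. The 1 lower gene was Cox4i2 (-0.74). Atp5g3 had 135, 174, 155 and 159 CPM at Day 3, against 72.4, 81.0, 72.1 and 78.4 CPM at Day 0 (1.03, SE 0.14, adjusted p = 4.21e-06). Without the doubted replicates 2 and 3 and the other libraries of that set, FB gave 63 higher and 1 lower at Day 1 and 70 higher and 2 lower at Day 3.

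Single genes at FB Day 3 were spread widely between libraries. Ndufa3, a small accessory subunit of complex I, had 36.4, 73.1, 60.2 and 79.0 CPM, against 20.4, 18.7, 18.2 and 19.4 CPM at Day 0 (1.68, SE 0.22, adjusted p = 2.53e-06). Cox4i1 had 130, 430, 410 and 175 CPM, against 108, 106, 91.4 and 106 CPM (1.46, SE 0.27, adjusted p = 0.000161). Both genes were higher in every Day 3 library, and Cox4i1 was far higher in replicates 2 and 3 than in replicates 1 and 4. The direction at Day 3 depended on the scale. On deposited TPM, log2(TPM + 1), 0 members were higher and 60 lower in FB, with all genes at a median of -1.17, so the members lay 0.05 above that median, and Ndufa3, Cox4i1, Atp5g3, Ndufa4 and Atp5g2 all turned negative. On rescaled TPM 23 were higher and 9 lower.

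From Day 7 on FB were at or below the Day 0 level. The counts were 1 higher and 6 lower at Day 7 (background 9.84% and 4.53%), 1 and 1 at Day 14 (8.25% and 2.62%), and 0 and 7 at Day 28 (2.88% and 0.606%), where the 0 was also 0 at an unadjusted p under 0.05 and by DESeq2. Limma gave 0 higher and 3 lower at Day 7 on log2(TPM + 1), and 0 higher and 1 lower at Day 14 on rescaled TPM. Ndufs7, a core subunit of complex I, had 11.2, 9.50, 11.2 and 10.1 CPM at Day 7, against 19.0, 16.5, 16.7 and 17.4 CPM at Day 0 (-0.73, SE 0.15, adjusted p = 0.00137). Cox6c had 39.5, 38.7, 45.1 and 46.4 CPM at Day 28, against 74.1, 74.2, 64.0 and 73.2 CPM at Day 0 (-0.75, SE 0.16, adjusted p = 0.00735). Uqcrb, a small subunit of complex III, had 36.8, 43.6, 44.7 and 30.5 CPM at Day 28, against 64.2, 69.5, 59.8 and 65.7 CPM (-0.74, SE 0.15, adjusted p = 0.00702). None of these genes overlapped between the days compared. At Day 28, 53 members lay below every Day 0 library in all 4 libraries, which was so for 11.1% of all genes. Without the doubted libraries 34 members were called lower at Day 28 and 15 at Day 7. Cox6b2, the testis form of subunit 6b, was the gene called higher at Days 7 and 14, and at FB Day 3 it had 0 reads in replicates 2 and 3.

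In EC the subunit genes were lower than at Day 0 from Day 1 on and lowest at Day 28. The counts called lower were 47 at Day 1, 64 at Day 3, 74 at Day 7, 73 at Day 14 and 82 at Day 28, with 0 higher at each day. The 0 counts were also 0 at an unadjusted p under 0.05 and by DESeq2. The background lower was 9.12% at Day 1, 22.3% at Day 3, 19.6% at Day 7, 14.3% at Day 14 and 17.4% at Day 28, and the background higher was 9.85%, 23.2%, 18%, 12.8% and 16.3% on these days. Member medians were -0.56, -0.69, -0.98, -0.96 and -1.52. At Day 28 all members of complexes II, III, IV and V that were tested were called lower, and 35 of 36 in complex I, where Ndufb6 (-0.54) was the one not called. The medians by complex were -1.49, -1.22, -1.64, -1.58 and -1.52 for complexes I to V.

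The gene with the lowest log2 fold change among named EC genes at Day 28 was Cox7a1, with 9.60, 14.5, 7.99 and 13.9 CPM, against 116, 135, 78.3 and 74.3 CPM at Day 0 (-3.14, SE 0.34, adjusted p = 2.32e-06). Atp5k had 19.0, 27.2, 18.7 and 25.7 CPM at Day 28, against 192, 198, 123 and 81.7 CPM (-2.71, SE 0.33, adjusted p = 6.39e-06). Day 0 replicates 1 and 2 were the highest for both genes, and these are among the doubted libraries, but Day 0 replicates 3 and 4 also lay above all Day 28 libraries. Genes not known as muscle isoforms were lower as well. Atp5a1, the catalytic-ring alpha subunit of ATP synthase, had 193, 246, 166 and 234 CPM at Day 28, against 467, 576, 406 and 487 CPM at Day 0 (-1.21, SE 0.15, adjusted p = 5.27e-06). Ndufs1, the largest core subunit of complex I, had 56.0, 70.1, 48.9 and 68.1 CPM, against 132, 150, 107 and 146 CPM (-1.14).

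At EC Day 3 the order of libraries was similar. Ndufa4 had 70.6, 82.1, 50.2 and 60.7 CPM, against 177, 224, 130 and 110 CPM at Day 0 (-1.28, SE 0.23, adjusted p = 0.000137). Complex I had 29 genes called lower, II 4, III 7, IV 11 and V 13. Cox8a, the widely expressed partner of Cox8b, was not called at Day 3 (0.34, adjusted p = 0.117) and was lower at Day 28 (-0.85).

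The EC counts depended on the Day 0 libraries and on the scale. Without the doubted libraries, which takes out EC Day 0 replicates 1 and 2, the counts lower were 0 at Day 1, 18 at Day 3, 57 at Day 7, 44 at Day 14 and 74 at Day 28. At Day 1 the count was 7 without Day 0 replicate 1, 4 without Day 0 replicate 2, 18 without Day 1 replicate 3 and 2 without Day 1 replicate 4. On log2(TPM + 1), which also moved the median of all genes to 0.65 at Day 7, 0.68 at Day 14 and 0.80 at Day 28, 0 members were called at Day 1, 11 lower at Day 3, 15 higher and 4 lower at Day 7, 21 higher and 3 lower at Day 14 and 4 higher and 22 lower at Day 28. Relative to the median of all genes the member median was then -0.62, -0.57 and -1.11 at Days 7, 14 and 28. Rescaled TPM gave 28, 60, 62, 55 and 71 members lower on Days 1 to 28. The 16 abundant CM transcripts summed to 3125 to 6654 CPM at EC Day 28, against 12524 to 20034 CPM at Day 0, and their part in the result was not tested.

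In HC the count called lower was 39 at Day 1, 36 at Day 3, 53 at Day 7, 28 at Day 14 and 32 at Day 28 (background lower 23.8%, 23.2%, 13.9%, 6.81% and 10.4%). Called higher were 0, 2, 0, 0 and 0 members (background higher 18.1%, 23.3%, 14.1%, 6.11% and 11.4%). By DESeq2 the 4 counts of 0 were also 0, and at an unadjusted p under 0.05 they were 0 except at Day 28, with 1. The medians were -0.61, -0.46, -0.87, -0.66 and -0.49, and all genes had a median of -0.10 at Day 1. At Day 7, 22 genes of complex I, 4 of II, 6 of III, 11 of IV and 10 of V were lower. All 4 complex II genes were called lower at each day except Day 3, with 3. Without HC Day 28 replicate 4, 49 members were lower at Day 28, and without HC Day 0 replicate 2 it was 21. With the doubted libraries left out, 50, 38, 62, 44 and 34 members were lower on Days 1 to 28. Rescaled TPM gave 67, 66, 62, 38 and 49 members lower, and log2(TPM + 1) gave 16, 8, 5, 0 and 0, all without a member higher. The deposited files of HC Days 1 and 7 list transcripts, and those of the other HC days list genes. For Days 1 and 7 against Day 0 the kind of file therefore cannot be told apart from the day.

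The 16 abundant CM transcripts were also lower in HC after Day 0, at 2283 to 4812 CPM at Day 7, against 17405 to 27734 CPM at Day 0, and their part in the result was not tested. Ndufs1 had 66.4, 60.9, 55.4 and 50.5 CPM at HC Day 3, against 125, 175, 151 and 137 CPM at Day 0 (-1.34, SE 0.13, adjusted p = 3.75e-08). Sdha, the flavoprotein of succinate dehydrogenase, had 156, 147, 133 and 122 CPM at Day 3, against 223, 302, 267 and 236 CPM (-0.88, SE 0.13, adjusted p = 4.95e-06). The day groups did not overlap for either gene. Of the 7 core subunits of complex I, 6 were called lower at HC Day 3, with a median of -0.74. Uqcrfs1, the Rieske iron-sulfur protein of complex III, was lower too (-1.26).

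The 2 genes higher in HC at Day 3 were the widely expressed isoforms Cox6a1 and Cox8a. Cox6a1 had 99.8, 58.5, 99.1 and 262 CPM, against 52.4, 49.1, 63.3 and 56.3 CPM at Day 0 (1.23, SE 0.42, adjusted p = 0.019). Cox8a had 99.3, 69.0, 96.4 and 230 CPM, against 43.1, 50.1, 65.1 and 54.5 CPM (1.22, SE 0.41, adjusted p = 0.0173). Replicate 4 was far above the rest for both, and without it neither was called (Cox6a1 0.64, adjusted p = 0.186, and Cox8a 0.73, adjusted p = 0.134). Cox8a was also not called without Day 0 replicate 1 (1.13, adjusted p = 0.0508). On rescaled TPM and on log2(TPM + 1) no member was called higher at HC Day 3.

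**Figure D2:**
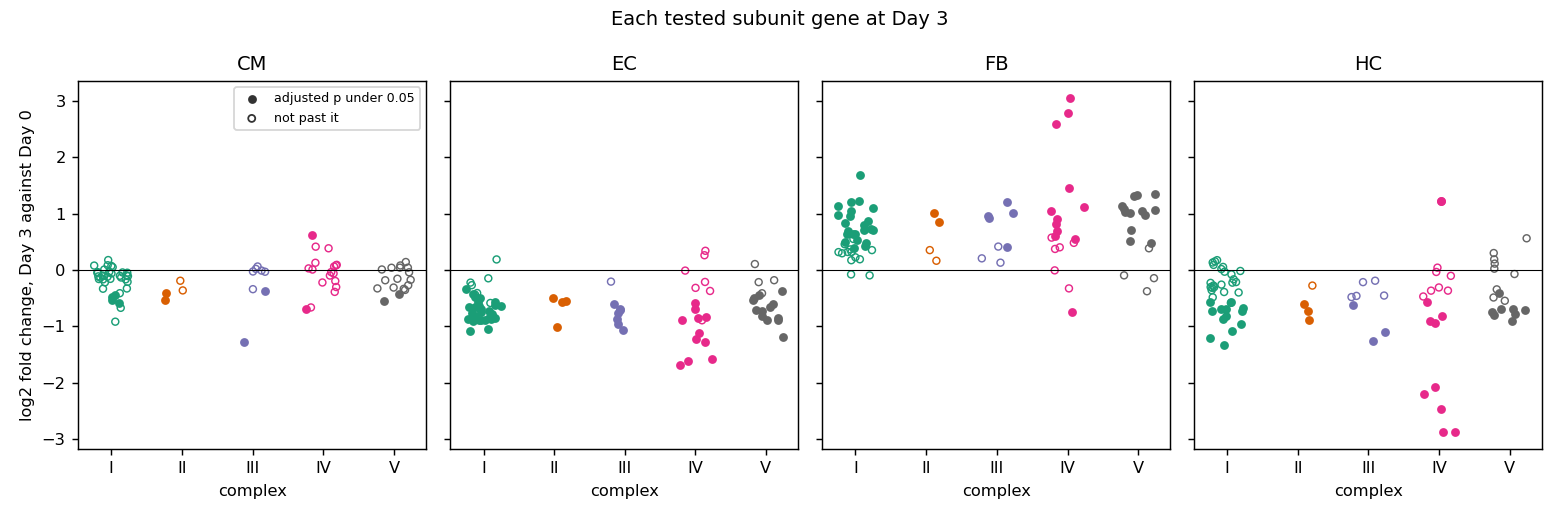
Log2 fold change of each member at Day 3 against Day 0 (y axis) by complex (x axis), 1 panel per cell type, with filled points for an adjusted p under 0.05. In FB 54 members are called higher, and in EC and HC 64 and 36 are called lower.

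In CM the main test called few members at most days, and the counts depended on the setting. The counts higher and lower were 0 and 2 at Day 1 (background 6.81% and 4.58%), 1 and 11 at Day 3 (16.0% and 14.6%), 0 and 10 at Day 7 (8.93% and 4.35%), 0 and 29 at Day 14 (8.05% and 5.71%) and 1 and 0 at Day 28 (2.48% and 1.09%). At an unadjusted p under 0.05 and by DESeq2 the counts of 0 were also 0, except for lower genes at Day 28, with 3 at an unadjusted p under 0.05 and 1 by DESeq2. Member medians were -0.19, -0.11, -0.42, -0.55 and 0.26 on these days. At Day 7, 27 members lay below every Day 0 library in all 4 libraries, which was so for 7.27% of all genes. At Day 14 it was 21 members and 6.77% of all genes. With the replicate number as a block, 34 members were called lower at Day 7 and 51 at Day 14, although the numbers were not taken to pair the days.

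Complex II was lower in CM at Days 3 to 14 by its count of genes called, with 2 of 4 at Day 3, 3 at Day 7 and 4 at Day 14. At Day 7, however, limma called no member of any complex on rescaled TPM or on log2(TPM + 1). Leaving out 1 library at a time gave 2 to 20 members called at Day 7. Sdha had 268, 259, 262 and 279 CPM at Day 0, 191, 172, 187 and 184 CPM at Day 3, 217, 192, 208 and 209 CPM at Day 7 and 206, 199, 213 and 230 CPM at Day 14. All libraries of these days lay below all Day 0 libraries (Day 3 -0.54, SE 0.11, adjusted p = 0.000575, and Day 14 -0.34, adjusted p = 0.0427). At Day 28 Sdha was not called (-0.31, adjusted p = 0.105). At Day 14 all 4 complex II genes were lower, among them the iron-sulfur subunit Sdhb (-0.62) and the membrane anchor Sdhc (-0.57), and 12 genes of complex I, 2 of III, 4 of IV and 7 of V were lower.

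Markers of hematopoietic cells and fibroblasts were higher in CM at Days 3 to 14 than at Day 0, while those of endothelial and mural cells were not. Those of hematopoietic cells summed over 4 genes to 0.196 to 0.587 CPM at CM Day 0, 5.14 to 7.21 CPM at Day 3, 1.99 to 3.28 CPM at Day 7 and 0.833 to 1.88 CPM at Day 14. Those of fibroblasts summed over 4 genes to 1.94 to 4.11 CPM at CM Day 0, 6.14 to 8.62 CPM at Day 3, 7.34 to 10.1 CPM at Day 7 and 5.08 to 7.76 CPM at Day 14. Endothelial markers (4 genes) summed to 63.2 to 98.0 CPM at CM Day 0 and 66.4 to 87.2 CPM at Day 3. They were at 66.5 to 83.9 CPM at Day 7 and 58.7 to 79.9 CPM at Day 14. The 10 markers of mural cells (smooth muscle cells and pericytes) summed to 162 to 214 CPM at CM Day 0 and 143 to 171 CPM at Day 3. They were at 169 to 193 CPM at Day 7 and 165 to 189 CPM at Day 14. The part of these markers in the result was not tested.

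At CM Day 3 the 11 of 83 members called lower were a share below the background of 14.6%. Atp5a1 had 613, 525, 651 and 594 CPM, against 796, 1020, 787 and 872 CPM at Day 0 (-0.54, SE 0.13, adjusted p = 0.00201). Ndufs1 had 152, 125, 129 and 127 CPM, against 192, 167, 237 and 199 CPM (-0.58, SE 0.13, adjusted p = 0.00178). Both turned positive on log2(TPM + 1), where 20 members were higher and 1 lower in CM at Day 3 and all genes had a median of 0.38. Uqcrc1, a core protein of complex III, had 35.9, 52.8, 37.8 and 61.8 CPM, against 67.6, 200, 64.5 and 125 CPM (-1.28, SE 0.31, adjusted p = 0.00306), without overlap although Day 0 was widely spread. Among the other genes lower at CM Day 3 were Atp5b, Cox7c, Ndufa9, Ndufv2, Sdha, Sdhd and Uqcrc2. Cox6a1 was the 1 gene higher, with 33.4, 27.2, 38.1 and 31.7 CPM, against 22.0, 22.1, 22.5 and 18.3 CPM (0.62, SE 0.22, adjusted p = 0.0321), and the call was lost without any one of CM Day 0 replicates 2 and 4 and Day 3 replicates 1 and 3.

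The transcripts of members over 1000 bases had lower values than the shorter ones at CM Day 3, with a median of -0.33 over 28 genes, against -0.05 over 55 shorter genes. Across these 83 genes Spearman's rho between length and log2 fold change was -0.52, and across 12761 protein-coding genes it was -0.17. The genes are not independent replicates and share the same 8 libraries. At EC Day 28 the medians were -1.37 for longer and -1.61 for shorter members, and at HC Day 28 they were -0.83 and -0.39.

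The CM Day 14 count rested on a few libraries. It was 50 without Day 14 replicate 1, 5 without Day 14 replicate 2, 7 without Day 14 replicate 3 and 14 without Day 14 replicate 4, and 16, 11 and 17 without Day 0 replicates 1, 2 and 3. Cox7c, a small complex IV subunit, had 61.8, 63.2, 52.0 and 70.1 CPM at Day 14, against 133, 149, 90.9 and 131 CPM at Day 0 (-1.03, SE 0.19, adjusted p = 0.000722). Ndufb4, an accessory subunit of complex I, had 141, 60.3, 77.7 and 75.5 CPM, against 156, 163, 175 and 133 CPM (-0.82, SE 0.26, adjusted p = 0.036), with Day 14 replicate 1 inside the Day 0 range, and the call was lost in 6 of the 8 fits that leave out 1 library of either day. Rescaled TPM left 1 member lower at Day 14, and log2(TPM + 1) left 0. At Day 28 Ndufs5 was the 1 gene called, with 66.5, 80.1, 96.3 and 96.9 CPM, against 42.4, 69.4, 49.3 and 58.9 CPM (0.63, SE 0.18, adjusted p = 0.0487). This call was lost in 5 of the 8 fits that leave out 1 library of either day, and rescaled TPM gave 3 higher and 5 lower.

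The muscle isoforms of complex IV were then followed as the share of their TPM in the sum with their widely expressed partner. Shares do not depend on how a library is scaled, but they do depend on the correction for transcript length in TPM. In HC, Cox8b took 75.0 ± 3.15% of Cox8b plus Cox8a at Day 0, and 26.2%, 12.7 ± 5.31%, 23.9%, 42.9% and 42.9% at Days 1, 3, 7, 14 and 28 (SD, n = 4). The HC share of Cox6a2 was 74.1 ± 5.43% at Day 0 and 35.9%, 18.3 ± 1.32%, 28.0%, 49.0% and 37.1% afterwards, and that of Cox7a1 was 49.7 ± 1.33% at Day 0 and 20.7%, 11.6 ± 1.17%, 18.5%, 29.4% and 30.5%. At every day after Day 0 all 4 libraries were below all Day 0 libraries. An exact two-sided permutation test of 4 against 4 libraries gave p = 0.0286 for each, the smallest it allows, and an adjusted p of 0.0397 over the 25 shares tested in HC. Taken from estimated reads in place of TPM, the HC share of Cox8b was 60.6% at Day 0, 7.64% at Day 3 and 25.7% at Day 28, with the same p from the exact permutation test.

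In EC the Cox7a1 share was 45.6 ± 1.31% at Day 0 and 36.2%, 28.6%, 23.3%, 21.5% and 17.8 ± 1.62% at Days 1 to 28, below Day 0 in every library of every later day. Here 13 of the 25 EC shares had p = 0.0286 by the exact permutation test, and 0 passed adjustment, with a smallest adjusted p of 0.0549. In CM, Cox6a2 took 95.7% at Day 28, against 94.5 ± 2.15% at Day 0, and Cox7a1 65.7%, against 60.3 ± 6.35% (SD, n = 4). Cox8b was at 93.6% in CM at Day 28, against 92.0 ± 0.386% at Day 0 (exact permutation p = 0.0286, adjusted p = 0.714), and from estimated reads the exact permutation p was 0.571. In FB the muscle isoforms were near the floor, with a Cox6a2 share of 3.82 ± 0.601% at Day 0, except for FB Day 3, where the 4 libraries had 1.49, 57.8, 38.7 and 1.22%. Replicates 2 and 3 alone were high.

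**Figure D3:**
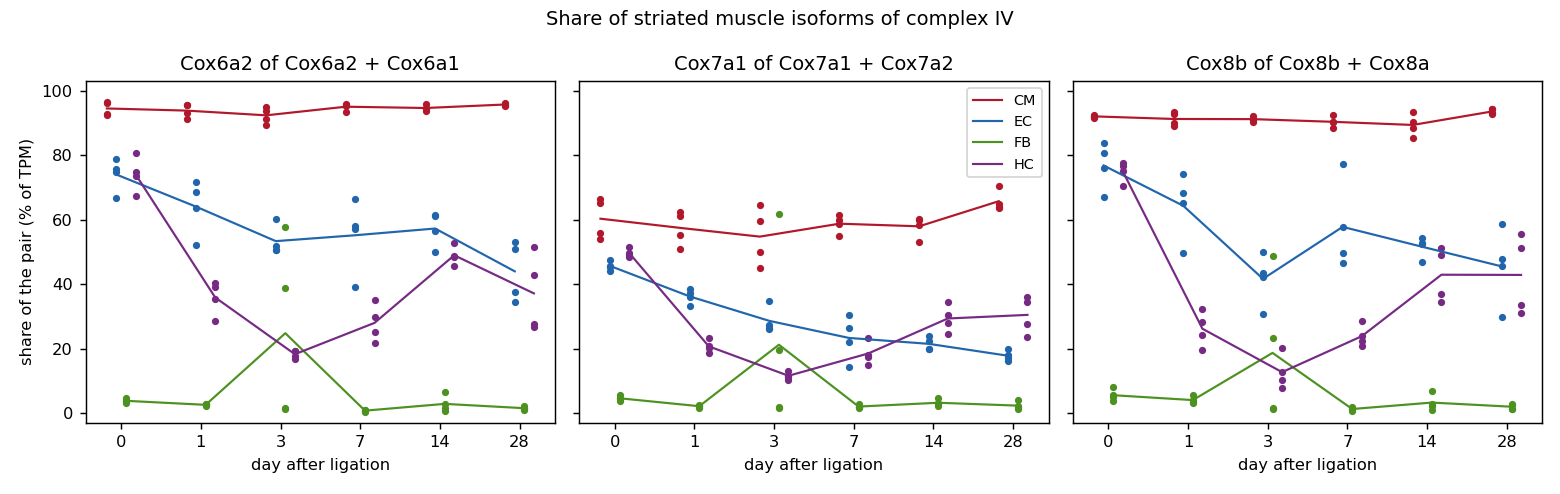
Share of Cox6a2, Cox7a1 and Cox8b in the TPM sum with the widely expressed partner (y axis, percent) in each library by day (x axis), 1 panel per isoform, with lines through the means of each cell type. HC shares drop to 11.6 to 18.3% at Day 3, and 2 FB Day 3 libraries stand far above the other FB libraries.

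By CPM, Cox7a1 in HC was at 8.53, 6.88, 10.4 and 23.6 at Day 3, against 63.1, 106, 111 and 83.3 at Day 0 (-2.88, SE 0.40, adjusted p = 4.44e-06). Cox8b was at 6.66, 5.14, 7.57 and 25.7 CPM, against 60.3, 89.4, 101 and 79.3 CPM (-2.87, SE 0.42, adjusted p = 6.77e-06), and Cox6a2 at 19.9, 14.0, 21.4 and 63.0 CPM, against 108, 205, 187 and 156 CPM (-2.47, SE 0.38, adjusted p = 1.27e-05). Day 3 replicate 4 was the highest of its group each time and still below Day 0. In FB at Day 3 these 3 genes were called higher, with replicates 2 and 3 high and replicates 1 and 4 at or below the Day 0 range. Cox6a2 had 1.37, 52.8, 23.3 and 1.52 CPM, against 1.75, 2.53, 1.84 and 2.40 CPM at Day 0 (3.06, SE 0.77, adjusted p = 0.00273), and Cox7a1 had 1.37, 60.2, 9.10 and 1.52 CPM, against 1.86, 2.96, 2.05 and 2.43 CPM (2.78, SE 0.79, adjusted p = 0.00626). Without replicates 2 and 3 and the other doubted libraries the FB values turned to -0.55 for Cox6a2, -0.67 for Cox7a1 and -1.41 for Cox8b, and they were also negative on log2(TPM + 1).

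The summed levels of these isoforms were set beside those of 16 other abundant transcripts of CM. In HC the 16 abundant CM transcripts summed to 2439 to 3429 CPM at Day 3, against 17405 to 27734 CPM at Day 0, and the 3 isoforms summed to 26.01 to 112 CPM, against 232 to 400 CPM. In EC at Day 28 the isoforms summed to 34.7 to 78.6 CPM, against 263 to 518 CPM at Day 0. The isoforms came to 3.04 to 3.79% of the 16 transcripts in CM Day 0, 1.48 to 2.72% in EC Day 0, 1.33 to 1.80% in HC Day 0 and 0.665 to 1.04% in FB Day 0. In FB Day 3 the 4 libraries had 0.455, 3.84, 1.65 and 0.439%. In EC at Day 28 the percentage was 0.857 to 1.32%, against 1.48 to 2.72% at Day 0, with no overlap. In HC at Day 3 it was 0.860 to 3.27%, against 1.33 to 1.80% at Day 0, and in CM at Day 28 it was 3.66 to 6.32%, against 3.04 to 3.79%, so the days overlapped in both. At Day 0 the isoforms made up a smaller percentage of these muscle transcripts in EC and HC than in CM, with no overlap of libraries. How much of the EC and HC subunit signal came from CM RNA was not tested.

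**Figure D4:**
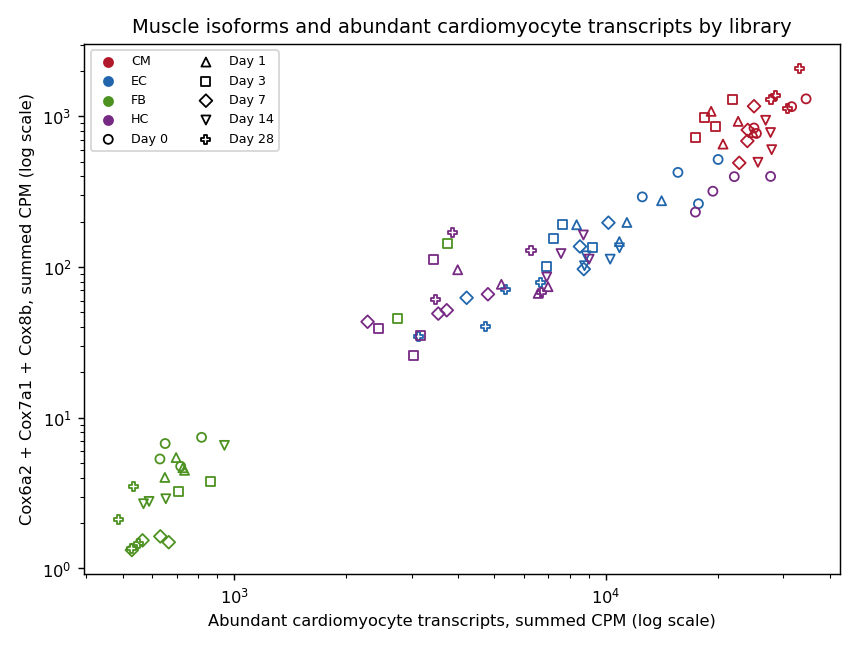
Summed CPM of Cox6a2, Cox7a1 and Cox8b (y axis, log scale) against the summed CPM of 16 abundant CM transcripts (x axis, log scale) in the 96 libraries, coloured by cell type and with a marker shape for each day. Replicates 2 and 3 of FB Day 3 sit apart from the other FB libraries.

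The promoter windows of 2 isoform pairs are shown here because the members of each pair differed in level between cell types. Each runs 250 bases before to 50 bases after the gene's start in RefSeq on GRCm38.p6, is written on the gene's own strand 5′ to 3′, and has matches to the motifs searched in capitals, except the short E-box. Cox7a1 lies at chr7:30183921-30184220 on the plus strand, Cox8b at chr7:140900397-140900696, Cox7a2 at chr9:79759804-79760103 and Cox8a at chr19:7217567-7217866, all 3 on the minus strand.
Cox7a1: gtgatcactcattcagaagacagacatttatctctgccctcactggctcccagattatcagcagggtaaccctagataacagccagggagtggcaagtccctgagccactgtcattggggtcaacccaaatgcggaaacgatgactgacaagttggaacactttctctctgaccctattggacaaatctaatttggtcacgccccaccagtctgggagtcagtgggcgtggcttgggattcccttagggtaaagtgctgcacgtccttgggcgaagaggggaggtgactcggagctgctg
Cox8b: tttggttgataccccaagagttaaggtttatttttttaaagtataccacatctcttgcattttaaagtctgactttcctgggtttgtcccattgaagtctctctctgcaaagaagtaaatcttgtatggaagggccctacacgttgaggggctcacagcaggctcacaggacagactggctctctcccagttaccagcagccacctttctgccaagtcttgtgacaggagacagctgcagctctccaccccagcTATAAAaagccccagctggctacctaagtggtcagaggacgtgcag
Cox7a2: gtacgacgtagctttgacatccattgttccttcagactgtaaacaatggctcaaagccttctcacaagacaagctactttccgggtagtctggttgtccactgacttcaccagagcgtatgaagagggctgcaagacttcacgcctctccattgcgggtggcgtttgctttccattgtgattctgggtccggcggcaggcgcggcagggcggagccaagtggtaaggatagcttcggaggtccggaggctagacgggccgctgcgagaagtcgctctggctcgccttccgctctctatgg
Cox8a: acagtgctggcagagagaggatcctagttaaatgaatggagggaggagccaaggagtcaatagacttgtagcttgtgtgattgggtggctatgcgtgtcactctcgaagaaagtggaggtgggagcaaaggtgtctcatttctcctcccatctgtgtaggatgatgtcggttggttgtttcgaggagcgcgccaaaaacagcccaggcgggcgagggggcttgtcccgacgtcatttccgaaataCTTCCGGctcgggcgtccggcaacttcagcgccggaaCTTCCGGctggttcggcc
Cox8b has a match to TATAAA, the letters of the TATA box, in this window. It falls within the 50 bases after the annotated start, not before the start, and is given by its letters only. Cox8a has 2 copies of the ETS motif CCGGAAG, read here as its reverse complement. The Cox7a1 and Cox7a2 windows hold none of the motifs in capitals. Their GC content was 53% for Cox7a1, 48.33% for Cox8b, 56.67% for Cox7a2 and 56% for Cox8a.

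A RefSeq promoter was matched for 67 members. The motif of the nuclear respiratory factor NRF1 (GCGCA, any base, then GCGC) was found on either strand in 16 of them (23.9%), and in 4.78% of 27025 promoters of the same length. The ETS motif CCGGAAG was in 15 (22.4%, all promoters 9.12%), the YY1 motif AAGATGGC in 8 (11.9%, all 2.88%) and the ERR half-site AAGGTCA in 8 (11.9%, all 4.66%). The muscle factor motif of MEF2 (CTA, any 4 bases, then TAG) was in 1 (1.49%, all 3.70%), the E-box CANNTG in 47 (70.1%, all 72.1%) and TATAAA in 7 (10.4%, all 14.2%). A match describes letters in the window and not a bound site.

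Cox4i2 and Ndufa4l2 had another distribution. At Day 0 Ndufa4l2 was at 127 ± 25.3 rescaled TPM in EC, 125 ± 15.4 in FB, 19.0 ± 3.23 in HC and 3.99 ± 1.99 in CM, and Cox4i2 at 57.1 ± 9.93 in EC, 22.2 ± 2.80 in FB, 9.49 ± 4.00 in HC and 5.44 ± 1.41 in CM (SD, n = 4). The EC and FB libraries overlapped for Ndufa4l2, and so did the HC and CM libraries for Cox4i2. Both genes are known from pericytes and smooth muscle cells as well as from cells short of oxygen.

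In EC, Cox4i2 had 2.60, 2.62, 3.45 and 2.17 CPM at Day 3, against 9.30, 8.07, 9.55 and 5.50 CPM at Day 0 (-1.57, SE 0.22, adjusted p = 5.38e-06). Ndufa4l2 had 7.36, 9.20, 7.88 and 6.50 CPM at Day 3, against 18.9, 20.99, 21.2 and 11.1 CPM (-1.22, SE 0.19, adjusted p = 2.69e-05). Every Day 3 library was below every Day 0 library for both. At Day 28 both were still lower (-0.96 each), but on log2(TPM + 1) the values turned to 0.24 for Cox4i2 and 0.21 for Ndufa4l2. Markers of mural cells, the smooth muscle cells and pericytes around vessels, summed to 1232 to 1498 CPM over 10 genes at EC Day 3, against 3069 to 3686 CPM at Day 0, and their part in the result was not tested.

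In FB the Ndufa4l2 share of the sum with Ndufa4 was 40.2 ± 2.66% at Day 0, 19.6 ± 1.57% at Day 1, 15.1 ± 6.74% at Day 3, 36.1% at Day 7, 40.4% at Day 14 and 41.7% at Day 28 (SD, n = 4). Days 1 and 3 did not overlap with Day 0 (exact permutation p = 0.0286 each, adjusted p = 0.0649 over 25 FB shares). Cox4i2 in FB had 1.92, 1.81, 1.96 and 1.39 CPM at Day 7, against 3.89, 3.72, 2.95 and 4.11 CPM at Day 0 (-1.05, SE 0.24, adjusted p = 0.00388). Its share with Cox4i1 in FB was 0.968% at Day 3, against 3.43% at Day 0 (exact permutation p = 0.0286, adjusted p = 0.0649). In EC the Cox4i2 share was 4.92% at Day 14, against 2.83% at Day 0 (exact permutation p = 0.0286, adjusted p = 0.0549). Mural markers summed to 590 to 641 CPM at FB Day 1, against 820 to 982 CPM at Day 0. In HC both genes were called lower at Day 3 (Cox4i2 -2.21 and Ndufa4l2 -2.08) at low levels, with mural markers at 71.4 to 90.1 CPM, against 457 to 661 CPM at Day 0, and the part of these markers was not tested.

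**Figure D5:**
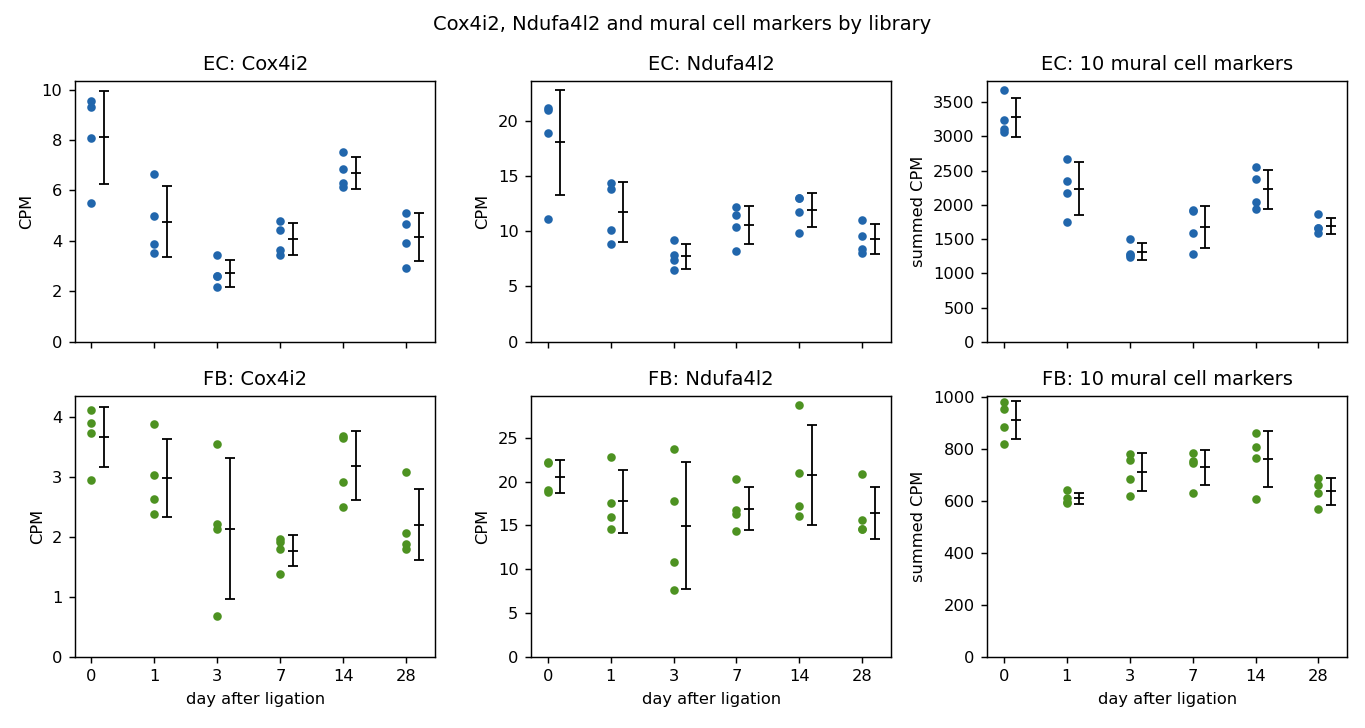
CPM of Cox4i2, Ndufa4l2 and the sum of 10 mural cell markers (y axes) by day (x axis) in EC and FB, with points for libraries and bars for mean ± SD (n = 4). In EC all 3 are lower at Day 3 than at Day 0 in every library.

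The ATP synthase c subunit is made from 3 genes that encode the same mature protein, Atp5g1, Atp5g2 and Atp5g3. Their TPM shares are given as a description. In CM at Day 0 Atp5g3 took 79.9%. In HC Atp5g2 took 39.2% at Day 3, against 20.9% at Day 0, and Atp5g3 55.1%, against 69.0%. In EC Atp5g2 took 31.6% at Day 28, against 19.6% at Day 0, and in FB it took 29.9% at Day 0, 36.3% at Day 1, 29.4% at Day 3, 38.5% at Day 7, 37.1% at Day 14 and 33.1% at Day 28. The FB Day 3 libraries were spread widely, at 38.6, 21.6, 14.9 and 42.5%. In CM, Atp5g1 took 2.90, 16.9, 2.05 and 14.4% in the Day 0 libraries, and replicates 2 and 4 were above replicates 1 and 3 at each of Days 0 to 14.

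Whether the change between Day 0 and Day 3 differed between cell types was tested directly, as the change in 1 cell type against the average change of the rest in the same 32 libraries. All 4 contrasts share these libraries and are not independent. In FB 50 members were called higher and 0 lower (background 13.2% and 15.2%), with a median of 0.90 against -0.12 over all genes. In EC it was 0 and 14 (6.82% and 5.17%), with a median of -0.60, in HC 0 and 21 (8.75% and 16.9%), with a median of -0.30, and in CM 2 and 1 (11.4% and 7.47%). The counts of 0 were also 0 at an unadjusted p under 0.05 and by DESeq2, except in HC, with 2 and 1. The FB genes were 21 of complex I, 4 of II, 5 of III, 10 of IV and 10 of V. The 3 CM genes were Cox4i2 (1.09), Ndufa4l2 (1.61) and Uqcrc1 (-1.34).

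Without the doubted libraries the counts were 44 higher and 0 lower in FB, 0 and 1 in EC, 0 and 28 in HC, and 5 and 2 in CM. The direction in FB depended on the scale, with 0 members higher and 38 lower on log2(TPM + 1), where the member median lay 0.29 above that of all genes, and in CM the same scale gave 10 higher and 0 lower. The EC count was 4 without EC Day 0 replicate 1, 5 without EC Day 0 replicate 2, 4 without EC Day 3 replicate 3 and 7 without EC Day 3 replicate 4, and the HC count was 32 without HC Day 3 replicate 4.

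Day 28 was also compared with Day 3. In FB 0 members were higher and 74 lower (background 26.0% and 24.8%, 0 higher also at an unadjusted p under 0.05 and by DESeq2), with a median of -1.04. In EC 1 was higher and 75 lower (22.5% and 25.1%), with a median of -0.83, and the 1 higher was Cox4i2. In CM 11 were higher and 0 lower (4.62% and 9.89%, 0 lower also at an unadjusted p under 0.05 and by DESeq2). They were mostly complex I genes, among them Ndufb7 (1.56), Ndufa11 (0.97), Ndufs5 (0.84), Ndufa10 (0.83), Ndufs6 (0.71), Ndufs3 (0.52), Ndufv2 (0.52) and Ndufa9 (0.45), together with Uqcrc1 (1.07) and Cox7a1 (0.85). In HC 3 were higher and 5 lower (23.5% and 18.5%), and Cox7a1, Cox8b and Ndufa4l2 were the higher ones. The CM count was 4 without Day 3 replicate 1 and 22 without Day 3 replicate 4. On log2(TPM + 1), EC gave 8 higher and 2 lower, FB 4 and 3, CM 0 and 1 and HC 1 and 0.

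Other genes of the pathway were counted from lists kept fixed through the analysis. The 13 protein-coding genes of the mitochondrial genome were called lower in EC in 1, 10, 13, 12 and 13 cases at Days 1, 3, 7, 14 and 28, with 0 higher and a median of -1.41 at Day 28. In HC 13 were lower at each of Days 1, 3 and 7. In FB 0 were called at Day 1, 1 higher and 8 lower at Day 3 and 12 lower at Day 7 (median -1.23). In CM 9 were lower at Day 3 (median -0.58). Of 13 citrate cycle genes, 11 were lower in CM at Day 3, 13 in EC at Day 28 and 11 in HC at Day 3, and 7 were higher in FB at Day 1. Of 44 assembly factor genes, 17 were lower in CM at Day 3, 27 were lower and 1 higher in EC at Day 28, and 17 were higher and 2 lower in FB at Day 3. The share of all genes called is as given above for each comparison.

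Reads of some members may be shared with other genes. The name rule matched 12 processed pseudogenes, none of them above 0.254 CPM on average (Ndufa11b), and 13 members overlap a gene on the opposite strand with at least 10 CPM, among them Atp5a1, Cox4i1, Cox6c, Ndufa4l2, Ndufs1 and Ndufb6. Because the use of strand in counting is not given in the sources used here, values of these members can include reads of the neighbour.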

How the data were processed

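Total RNA was depleted of ribosomal RNA and made into libraries with a ligation-free kit. The authors ran Trim Galore on the reads, aligned these with STAR 2.28 to mm10 and quantified them with Salmon on the GRCm38 annotation. The deposited values are Salmon's estimated counts (reads) and TPM, as 56 files of 137734 transcripts and 40 files of 51398 genes, and how the gene files were summed is not given in the sources used here. The transcript files were those of CM, EC and HC Days 1 and 7. The gene files were those of FB and HC Days 0, 3, 14 and 28. For HC and for comparisons between cell types, 162 genes whose length differed between the kinds of file were left out. No member was among them. Both values were summed to genes here, over 50868 genes listed in every file, and the estimated counts were rounded to whole numbers. Entries without a gene held at most 0.382% of reads and were left out.

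Depth ran between 2664338 and 55758471 estimated reads a library. The tests were tried on simulated CM counts, where the main test missed most small changes. A member not called may therefore still have changed. Where counts are near 0, the depth limits what can be seen.

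Members and lists were chosen with earlier results of these data known. Groups came from the sample titles. The main test was the quasi-likelihood test of edgeR 4.0.16 in R 4.3.3 (TMM factors, filterByExpr, robust), fitted on the 24 libraries of a cell type, the 96 libraries for cell types and 32 libraries for the contrasts of change, with Benjamini-Hochberg adjustment over all genes tested. The standard error was the absolute log2 fold change divided by the square root of F. Named genes were, among members called at a mean of at least 10 CPM, 4 at each end of the log2 fold changes for Day 3 and for cell types and 2 at each end for other days, plus the isoform pairs and the 3 c subunit genes. Other members, such as Sdha in CM and HC and Ndufs1 and Atp5a1 in EC, were named after their values were seen. Alternatives were DESeq2 1.42.0, limma 3.58.1 on log2(TPM + 1), log2(TPM + 0.1) and rescaled TPM, no filter, rRNA and mitochondrial genome genes left out, the replicate number as a block, and libraries left out. Isoform shares were tested with SciPy 1.17.1. The Day 3 contrasts without single libraries were added after seeing the data. Length columns served only to compare transcript lengths. Promoters came from RefSeq. The values of some members are not reported here by gene.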

Additional observations from a re-analysis of the deposited data

Results flagged for a closer look

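The CPM sum of each complex and the share of each isoform were searched for 1 library that stood apart from the 3 others of its group, by the gap to the nearest one divided by the range of the group. Of 240 groups, 16 passed Dixon's critical value for 4 libraries, and chance flags about 1 in 20 groups.

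In CM Day 28, replicate 3 was high for complex I with 7770 CPM (the others 4892 to 5359), for complex III with 2699 CPM (1878 to 2011), for complex V with 8447 CPM (6066 to 6332) and for the Cox7a1 share with 70.4% (63.7 to 64.8%). In FB Day 0, replicate 3 was low for complex I with 888 CPM (993 to 1006) and complex IV with 597 CPM (665 to 672). In HC Day 1, replicate 4 was high for complex I with 1861 CPM (1322 to 1386) and complex V with 2658 CPM (2076 to 2126). In HC Day 3, replicate 4 was high for complex III with 970 CPM (399 to 487). For complex II, CM Day 7 replicate 3 was high with 645 CPM (558 to 567) and CM Day 0 replicate 2 with 896 CPM (755 to 778). In CM Day 14, replicate 1 was high for the Cox4i2 share with 0.232% (0.0579 to 0.0655%) and low for the Ndufa4l2 share with 0.0921% (0.121 to 0.122%). In EC Day 3, replicate 1 was high for the Cox6a2 share with 60.2% (50.6 to 51.9%) and replicate 2 for the Cox7a1 share with 34.8% (the others up to 27.2%). In EC Day 28, replicate 4 was low for the Ndufa4l2 share with 11.9% (16.9 to 17.7%).

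By edgeR's interaction contrast of the change between Day 0 and Day 3, 3 members were called for CM, 14 for EC, 50 for FB and 21 for HC. All those of EC and HC were lower and all those of FB higher. The background higher and lower was 11.4% and 7.47% for CM, so the CM count was a share below it. This background was 6.82% and 5.17% for EC, 13.2% and 15.2% for FB and 8.75% and 16.9% for HC. Among named genes the differences, on the log2 scale, were -1.34 for Uqcrc1 in CM (adjusted p = 0.00141) and -1.15 for Ndufa4 in EC (adjusted p = 0.0119). In FB they were 3.89 for Cox6a2 (adjusted p = 0.000812), 4.01 for Cox7a1 (0.000627), 1.67 for Ndufa3 (0.000764) and 1.92 for Cox4i1 (0.00316). In HC they were -2.97 for Cox7a1 (0.00300), -2.97 for Cox8b (0.00334), -2.98 for Cox6a2 (0.00306) and -0.90 for Ndufs1 (0.000253). The FB values for Cox6a2 and Cox7a1 rest on replicates 2 and 3 of FB Day 3.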

How the results depend on the processing

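Medians of EC and HC against Day 0 stayed below the median of all genes and those of FB Days 1 and 3 above it on every scale tried, but many counts of members called moved, and the cause was not tested. The counts that moved by over 1.5 times are given here by setting, against Day 0 unless another day or a contrast is named, and a contrast is the Day 3 change of a cell type against the others. DESeq2 called 4 for CM Day 1, 19 for CM Day 7, 4 for CM Day 28, 39 for the EC contrast of changes, 13 for FB Day 7 and 18 for FB Day 28. With no filter on low counts the counts were 1 for CM Day 1, 3 for CM Day 7, 0 for CM Day 28, 5 for CM Day 28 against Day 3, 17 for EC Day 1, 1 for FB Day 14 and 3 for FB Day 28. Leaving rRNA and mitochondrial genome genes out gave 1 for FB Day 14.

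On TPM rescaled over nuclear protein-coding genes, limma called 0 for CM Day 1, 0 for CM Day 7, 1 for CM Day 14, 8 for CM Day 28, 2 for CM Day 28 against Day 3, 28 for EC Day 1, 42 for EC Day 28 against Day 3, 17 for FB Day 1, 32 for FB Day 3, 2 for FB Day 7, 1 for FB Day 14, 0 for FB Day 28, 43 for FB Day 28 against Day 3, 67 for HC Day 1, 66 for HC Day 3 and 49 for HC Day 28. On log2(TPM + 1) it called 0 for CM Day 1, 21 for CM Day 3, 0 for CM Day 7, 0 for CM Day 14, 2 for CM Day 28, 1 for CM Day 28 against Day 3, 10 for the CM contrast of changes, 0 for EC Day 1, 11 for EC Day 3, 19 for EC Day 7, 24 for EC Day 14, 26 for EC Day 28, 10 for EC Day 28 against Day 3, 0 for the EC contrast of changes, 0 for FB Day 1, 3 for FB Day 7, 0 for FB Day 14, 2 for FB Day 28, 7 for FB Day 28 against Day 3, 16 for HC Day 1, 8 for HC Day 3, 5 for HC Day 7, 0 for HC Day 14, 0 for HC Day 28, 1 for HC Day 28 against Day 3, 52 for HC against the other cell types and 3 for the HC contrast of changes. With 0.1 in place of 1 it called 0 for CM Day 1, 19 for CM Day 3, 0 for CM Day 7, 0 for CM Day 14, 5 for CM Day 28, 1 for CM Day 28 against Day 3, 0 for EC Day 1, 13 for EC Day 3, 19 for EC Day 7, 24 for EC Day 14, 26 for EC Day 28, 10 for EC Day 28 against Day 3, 0 for FB Day 1, 2 for FB Day 7, 0 for FB Day 14, 0 for FB Day 28, 7 for FB Day 28 against Day 3, 22 for HC Day 1, 8 for HC Day 3, 4 for HC Day 7, 0 for HC Day 14, 0 for HC Day 28 and 2 for HC Day 28 against Day 3. The log2 fold changes against Day 0 of 23 named results turned direction on log2(TPM + 1) and log2(TPM + 0.1), and both values are given in that order. At CM Day 3 these were Ndufs1 at 0.55 and 0.57 and Atp5a1 at 0.31 and 0.31. At FB Day 3 these were Cox6a2 at -0.031 and -0.21, Cox7a1 at -0.30 and -0.59, Ndufa3 at -0.45 and -0.48, Cox4i1 at -0.71 and -0.72, Atp5g3 at -0.94 and -0.96, Cox8b at -0.61 and -0.96, Ndufa4 at -1.11 and -1.20 and Atp5g2 at -1.03 and -1.12. At EC Day 7 these were Cox4i2 at 0.074 and 0.10, Atp5g3 at 0.20 and 0.20, Cox7a2 at 0.26 and 0.27 and Cox8a at 0.52 and 0.54. At EC Day 14 these were Atp5g3 at 0.27 and 0.27, Cox7a2 at 0.39 and 0.40 and Ndufa4l2 at 0.42 and 0.47. At EC Day 28 these were Atp5g1 at 0.46 and 0.52, Cox4i2 at 0.24 and 0.30, Cox8a at 0.41 and 0.43, Ndufa4l2 at 0.21 and 0.24, Cox6a1 at 0.49 and 0.50 and Atp5g2 at 0.68 and 0.70.

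Without the 8 libraries that share antisense transcripts the counts were 7 for the CM contrast of changes, 0 for EC Day 1, 18 for EC Day 3, 44 for EC Day 14, 1 for the EC contrast of changes, 64 for FB Day 1, 17 for FB Day 7, 4 for FB Day 14, 34 for FB Day 28, 44 for HC Day 14 and 5 for HC Day 28 against Day 3. Without the libraries that share antisense transcripts, Cox6a2 at -0.55, Cox7a1 at -0.67 and Cox8b at -1.41 turned direction at FB Day 3. Leaving out 1 library at a time gave counts of 0 to 3 for CM Day 1, 8 to 12 for CM Day 3, 2 to 20 for CM Day 7, 5 to 50 for CM Day 14, 0 to 3 for CM Day 28, 4 to 22 for CM Day 28 against Day 3, 2 to 5 for the CM contrast of changes, 2 to 61 for EC Day 1, 55 to 67 for EC Day 3, 71 to 74 for EC Day 7, 65 to 73 for EC Day 14, 80 to 82 for EC Day 28, 64 to 79 for EC Day 28 against Day 3, 4 to 21 for the EC contrast of changes, 23 to 36 for FB Day 1, 42 to 68 for FB Day 3, 3 to 10 for FB Day 7, 0 to 4 for FB Day 14, 2 to 7 for FB Day 28, 62 to 78 for FB Day 28 against Day 3, 41 to 60 for the FB contrast of changes, 30 to 43 for HC Day 1, 28 to 57 for HC Day 3, 44 to 54 for HC Day 7, 18 to 30 for HC Day 14, 21 to 49 for HC Day 28, 7 to 16 for HC Day 28 against Day 3 and 10 to 32 for the HC contrast of changes. The libraries whose omission moved a count by over 1.5 times were as follows. For CM Day 1 this gave 0 without CM Day 0 replicate 2 and CM Day 1 replicate 2 and 4, 1 without CM Day 0 replicate 4 and CM Day 1 replicate 3. For CM Day 7 this gave 2 without CM Day 7 replicate 4, 3 without CM Day 0 replicate 2 and CM Day 7 replicate 1, 4 without CM Day 7 replicate 2, 6 without CM Day 0 replicate 1 and 4, 20 without CM Day 7 replicate 3. For CM Day 14 this gave 5 without CM Day 14 replicate 2, 7 without CM Day 14 replicate 3, 11 without CM Day 0 replicate 2, 14 without CM Day 14 replicate 4, 16 without CM Day 0 replicate 1, 17 without CM Day 0 replicate 3, 50 without CM Day 14 replicate 1. For CM Day 28 this gave 0 without CM Day 0 replicate 1, 3 and 4 and CM Day 28 replicate 3 and 4, 2 without CM Day 0 replicate 2 and CM Day 28 replicate 1, 3 without CM Day 28 replicate 2. For CM Day 28 against Day 3 this gave 4 without CM Day 3 replicate 1 and CM Day 28 replicate 3, 5 without CM Day 3 replicate 2, 6 without CM Day 3 replicate 3 and CM Day 28 replicate 4, 22 without CM Day 3 replicate 4. For the CM contrast of changes this gave 5 without FB Day 3 replicate 1. For EC Day 1 this gave 2 without EC Day 1 replicate 4, 4 without EC Day 0 replicate 2, 7 without EC Day 0 replicate 1, 18 without EC Day 1 replicate 3. For the EC contrast of changes this gave 4 without EC Day 0 replicate 1 and EC Day 3 replicate 3, 5 without EC Day 0 replicate 2, 7 without EC Day 3 replicate 4. For FB Day 1 this gave 23 without FB Day 0 replicate 3. For FB Day 7 this gave 3 without FB Day 0 replicate 4 and FB Day 7 replicate 1 and 2, 4 without FB Day 0 replicate 1 and 2 and FB Day 7 replicate 4. For FB Day 14 this gave 0 without FB Day 14 replicate 1, 1 without FB Day 0 replicate 1, 2, 3 and 4 and FB Day 14 replicate 3 and 4, 4 without FB Day 14 replicate 2. For FB Day 28 this gave 2 without FB Day 0 replicate 1 and 4 and FB Day 28 replicate 1, 3 without FB Day 0 replicate 2, 4 without FB Day 28 replicate 2 and 4. For HC Day 14 this gave 18 without HC Day 0 replicate 2 and 3 and HC Day 14 replicate 1. For HC Day 28 this gave 21 without HC Day 0 replicate 2, 49 without HC Day 28 replicate 4. For HC Day 28 against Day 3 this gave 16 without HC Day 28 replicate 4. For the HC contrast of changes this gave 10 without HC Day 0 replicate 2, 32 without HC Day 3 replicate 4.

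Same-numbered libraries of different days did not deviate together in every pair (mean correlation 0.161 in CM, 0.044 in HC, -0.026 in EC and -0.005 in FB). The numbers were therefore not taken to pair the days. In CM, however, the highest pair reached 0.418, and libraries with other numbers had a mean of -0.053. With the replicate number as a block the counts that moved were 4 for CM Day 1, 34 for CM Day 7, 51 for CM Day 14, 5 for CM Day 28, 27 for CM Day 28 against Day 3 and 1 for FB Day 14. Among 142 named results DESeq2 ended no call, no filter ended 14 and the block 1, and 30 lost their call without 1 library. Limma ended 32 calls on rescaled TPM, 65 on log2(TPM + 1) and 64 on log2(TPM + 0.1), besides the results that turned direction. Leaving out the libraries that share antisense transcripts ended 24, besides the 3 that turned direction. Not every setting covered all 142 results. Isoform shares of 3 against 4 libraries cannot pass adjustment and were taken as values. Depth limits Cox4i2, Ndufa4l2 and the muscle isoforms in FB, which lie at a few CPM.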
